A study of Mus musculus with 12 samples.

Results

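The 36 genes described here encode the integrin and laminin chains measured on the arrays. They comprised 26 integrins, with 18 alpha and 8 beta chains, and 10 laminins, with 5 alpha, 3 beta and 2 gamma chains. The rule read symbols alone and used no measured value, though it was set with earlier results of these data known. A gene qualified if a probe set carried its symbol and no other, and if that symbol was Itga, Itgb, Lama, Lamb or Lamc followed by digits, by 2b, or by m, x, l, e, d or v in the alpha integrins. They were 36 of 19938 genes with such a probe set. All but Itgad had a single one, and the brighter of its 2 was used.

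The arrays came from a primary co-culture of uterine cells of CD-1 mice, isolated with enzymes on day 4 of pseudopregnancy. Sheets of epithelium lay on inserts coated with matrigel, a basement membrane extract rich in laminin, and the stroma lay on cover slips of the same wells. After a night in steroid-depleted medium, every co-culture received either 10 nM estradiol (E2) or 0.01% ethanol, the vehicle, for 2 days, and RNA of each layer was then profiled on its own. The 4 groups were epithelial E2, epithelial vehicle, stromal E2 and stromal vehicle, with 3 arrays each. No allele, transgene or age is named in the labels, neither layer was profiled without the other, and whether replicate arrays stem from different mice or wells is not given. The p-values therefore measure only the spread between these arrays, which may be technical.

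Integrins are receptors of 1 alpha and 1 beta chain that hold cells to the matrix or to each other and signal through adaptor proteins at focal adhesions. Laminins are cross-shaped trimers of 1 alpha, 1 beta and 1 gamma chain and form the network on which a basement membrane is built. In the uterus this membrane separates the epithelium from the stroma, and integrins of the luminal epithelium are studied for their part in the attachment of the embryo.

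Levels below are log2 signals of the authors' normalized table, 1 unit being a doubling of signal, and the array medians over the 23410 probe sets with a gene symbol lay between 7.377 and 7.431. Differences are followed by ± their standard error from limma, with n = 3 arrays in each group. An adjusted p is limma's p after Benjamini-Hochberg adjustment over all 23410 probe sets, and a gene passed when it was under 0.05. Levels are compared between samples and never between genes. Whether a signal lay above background was not tested. Itgae, Itgal, Itgax and Itgb7 were below the array median on all 12 arrays, and 0 of 36 genes were below the lower quartile on all of them.

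Markers of the labelled cell types, none of them an integrin or laminin, bear on what follows. The mean of 16 epithelial markers was 9.60, 9.78 and 9.79 in the epithelial E2 arrays and 10.76, 11.29 and 9.72 in the epithelial vehicle arrays, against 7.09 to 7.25 in stromal E2 and 6.77 to 6.97 in stromal vehicle arrays. Epithelial vehicle replicate 3 thus stood with the E2 arrays. The mean of 16 stromal markers differed less between layers, with 10.24 to 10.41 in epithelial E2 and 9.57 to 10.39 in epithelial vehicle, against 10.54 to 10.68 in stromal E2 and 10.66 to 10.84 in stromal vehicle. Under E2, 1 of the 16 was higher and 3 lower in epithelium (median -0.162), and under vehicle 0 were higher and 9 lower (median -0.804). On the inserts 6 mesothelial markers averaged 8.90 to 9.85, against 6.89 to 7.06 on the cover slips. In such bulk samples fewer cells of a type and less RNA per cell cannot be told apart. E2 replicates 1 and 2 were closely alike, the SD of their differences over probe sets being 0.165 in epithelium and 0.113 in stroma, against 0.395 and 0.437, and 0.194 and 0.218, for their differences from E2 replicate 3.

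E2 changed 5 of the 36 genes in the epithelial layer. Itga8, Itga11 and Itgb8 rose, and the laminin-binding chains Itga3 and Itgb4 fell. That is 13.9% of the genes, where 2.9% of all 23410 probe sets passed (1.77% higher and 1.12% lower). The median difference of the 36 was -0.053, against 0.0313 over all probe sets. All 5 were integrins, and 0 of 10 laminin chains passed by limma (4 at an unadjusted p under 0.05).

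Itga8, which pairs with Itgb1 into a receptor for matrix proteins with an RGD sequence and is typical of mesenchymal cells, read 9.56, 9.57 and 9.02 in epithelial E2 arrays and 7.28, 7.25 and 8.09 in epithelial vehicle arrays. All 3 E2 arrays lay above all 3 vehicle arrays, with replicate 3 of each treatment the nearest to the other group. The difference was 1.84 ± 0.28, a 3.59-fold rise (adjusted p = 0.00561). Itga11, a collagen receptor of fibroblasts, read 11.05, 11.04 and 10.85 with E2 and 9.25, 8.65 and 10.20 with vehicle. It rose 3.06-fold (1.61 ± 0.28, adjusted p = 0.013), and vehicle replicate 3 was again the vehicle array closest to the E2 arrays. Itgb8, which joins Itgav in a receptor that activates latent TGF-beta, read 8.48, 8.95 and 8.35 with E2 and 7.29, 7.43 and 8.12 with vehicle, a 1.98-fold rise (0.98 ± 0.22, adjusted p = 0.0398). Its groups did not overlap, although vehicle replicate 3 came within reach of E2 replicate 3.

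Among the laminin receptors Itga3, an alpha chain of epithelia that binds laminins containing Lama3 or Lama5, read 10.57, 10.72 and 10.76 in epithelial E2 arrays and 11.72, 12.17 and 11.25 in epithelial vehicle arrays. The E2 arrays were tightly grouped and lay below every vehicle array, the difference of means being -1.03 ± 0.18 (2.04-fold lower, adjusted p = 0.0116). Itgb4, which with Itga6 anchors hemidesmosomes to laminin, read 8.94, 9.18 and 9.61 with E2 and 10.98, 11.96 and 9.95 with vehicle. The vehicle arrays spread from 9.95 to 11.96, all above the E2 arrays, and the difference was -1.72 ± 0.38 (3.29-fold lower, adjusted p = 0.0345). Itga6 itself read 9.72, 9.79 and 9.57 with E2 and 10.40, 11.16 and 9.32 with vehicle. Its vehicle arrays lay on both sides of the E2 arrays, and the difference of -0.60 ± 0.39 did not pass (adjusted p = 0.518).

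**Figure D1:**
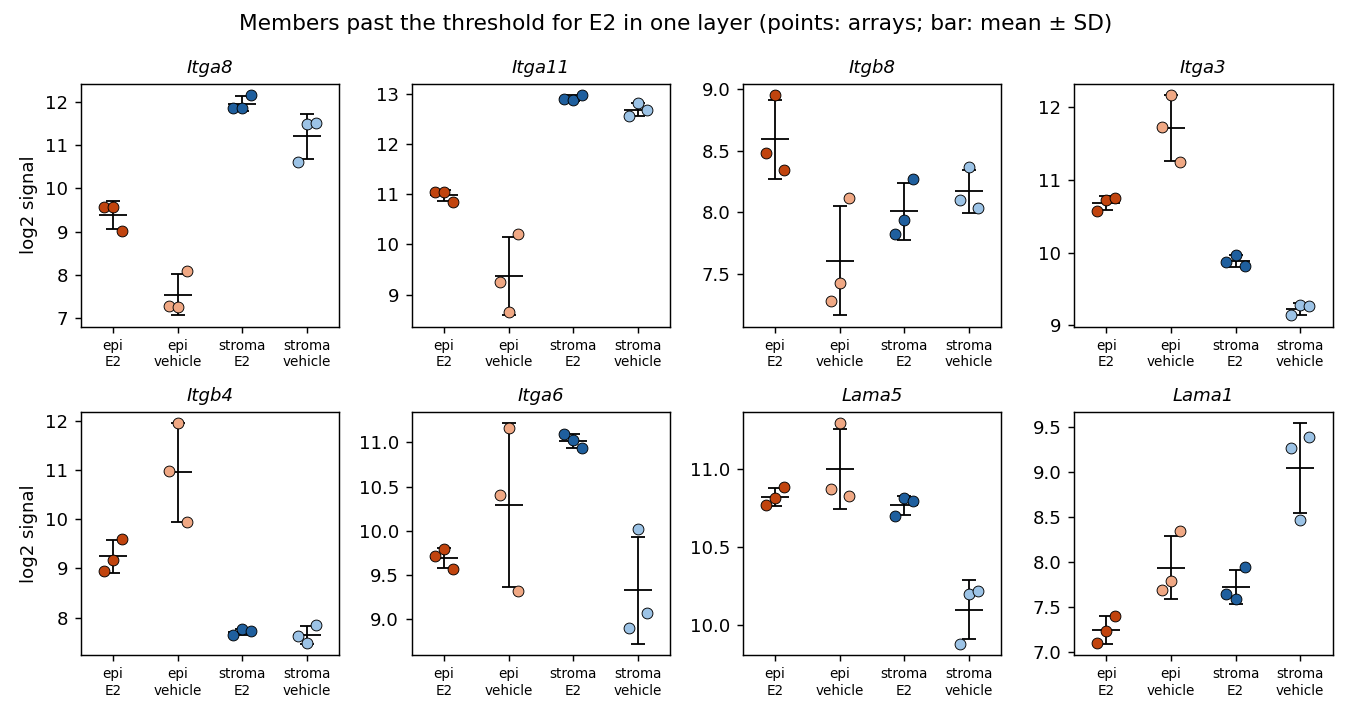
Log2 signal (vertical axes) of the 8 genes that passed in an E2 comparison, for epithelial E2, epithelial vehicle, stromal E2 and stromal vehicle arrays from left to right. Points are the 3 arrays of a group, and bars are the mean ± SD. Itga8 and Itga11 sit higher in both stromal groups than in the epithelial ones, Itga3 is lower with E2 in epithelium and higher with E2 in stroma, and epithelial vehicle arrays of Itgb4 range from 9.95 to 11.96.

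These calls moved with single arrays. Without epithelial E2 replicate 1 or 2 only Itga8 passed, while the adjusted p was 0.0634 and 0.0643 for Itga11, 0.0634 and 0.0505 for Itga3, 0.145 and 0.129 for Itgb4 and 0.112 and 0.165 for Itgb8. Itgb4 passed in 3 of 12 such fits (without epithelial E2 replicate 3, vehicle replicate 2 or vehicle replicate 3), and Itgb8 in 2 of 12 (without epithelial E2 replicate 3 or vehicle replicate 3), with an adjusted p of at most 0.145 and 0.165 in the others. Itga8 passed in all 12. Without epithelial vehicle replicate 3, 12 genes passed, the 5 above with Itga7, Itga9, Itgav, Itgb6, Lama3, Lamb3 and Lamc1. Without epithelial E2 replicate 3, 9 passed, the 5 with Itga4, Itgam, Itgb2 and Lamb3. Without any 1 of the 6 stromal arrays, which share the estimate of spread, Itga8, Itga11 and Itga3 passed and Itgb4 and Itgb8 did not (adjusted p of 0.0509 to 0.0682). Fitted on the 6 epithelial arrays alone, 0 of 36 passed by limma (13 at an unadjusted p under 0.05), Itga8 having an adjusted p of 0.0579, and with E2 replicates 1 and 2 averaged 0 of 36 passed as well (12 at an unadjusted p under 0.05). Calls over all probe sets moved as well. Of them 0.209% passed in the epithelial arrays alone, 0.38% with the averaging, and 0.935% and 0.94% without epithelial E2 replicate 1 and 2. The share was 6.98% without epithelial vehicle replicate 3, 6.46% without epithelial E2 replicate 3 and 1.79% to 2.54% without a stromal array. It was 2.9% with all 12 arrays.

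Lamb3, Lama3, Itgb6 and Itga4 had differences beyond 1 log2 unit that did not pass. Lamb3, a beta chain of the laminin beneath hemidesmosomes, read 8.68, 9.22 and 9.79 with E2 and 10.81, 11.85 and 9.80 with vehicle, a difference of -1.59 ± 0.43 (adjusted p = 0.076). Lama3, the alpha chain of that laminin, read 8.38, 8.57 and 8.73 with E2 and 9.71, 10.88 and 8.68 with vehicle (-1.20 ± 0.39, adjusted p = 0.143). For Itgb6, an epithelial beta chain that pairs with Itgav, the E2 arrays read 8.71, 9.16 and 9.68 and the vehicle arrays 10.43, 11.63 and 9.19 (-1.23 ± 0.46, adjusted p = 0.196). In Lama3 and Itgb6 the value of vehicle replicate 3 lay inside the E2 range, and in Lamb3 it was just above it.

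The order of these vehicle arrays was that of the epithelial markers. Across the 6 epithelial arrays Itgb4, Itgb6, Lama3 and Lamb3 were highest in vehicle replicate 2, next in vehicle replicate 1 and lower in the other 4, as were the markers. Of the 16 epithelial markers 0 were higher and 2 lower with E2 by limma, with a median difference of -0.808, and 16 stromal markers had 1 higher, 0 lower and a median of 0.345. At the marker level of vehicle replicate 3 (9.72, within the E2 range of 9.60 to 9.79), Itga8 at 8.09, Itga11 at 10.20, Itgb8 at 8.12, Itga3 at 11.25 and Itgb4 at 9.95 lay on the vehicle side of all E2 arrays. That is 1 array, and these genes were picked as called, so nothing is read from it. The part of the marker shift in the differences of these genes was not tested.

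**Figure D2:**
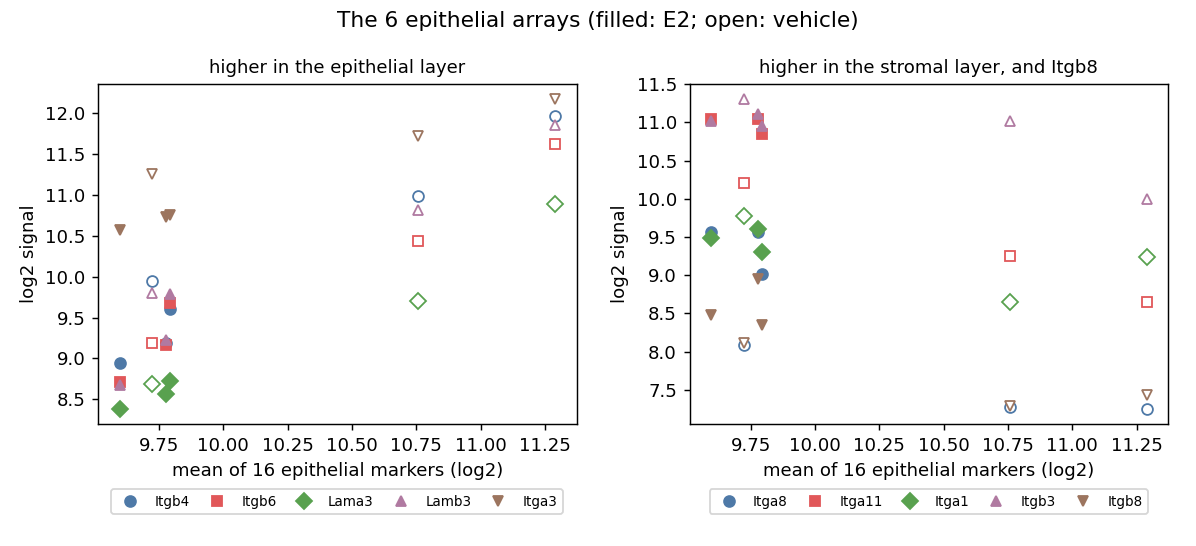
Log2 signal of 10 genes (vertical axes) against the mean log2 level of 16 epithelial markers (horizontal axes) in the 6 epithelial arrays, filled for E2 and open for vehicle. On the left, 5 genes higher in the epithelial layer are highest in the vehicle arrays with marker means of 11.29 and 10.76; on the right are 4 genes higher in the stromal layer and Itgb8. The vehicle array at 9.72 lies among the E2 arrays on the horizontal axis.

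Leukocyte chains stood beside another set of markers. Itgam, the alpha chain of the complement receptor of macrophages and neutrophils, read 8.46, 8.79 and 7.56 in the epithelial E2 arrays and 7.64, 7.22 and 7.65 in the epithelial vehicle arrays. Itgb2, its beta chain, read 8.74, 8.91 and 8.01 with E2 and 7.93, 7.23 and 8.15 with vehicle. E2 replicate 3 lay within the vehicle range of both genes. The differences of 0.77 ± 0.25 and 0.78 ± 0.25 did not pass (adjusted p = 0.145 and 0.135). The mean of 15 macrophage and pan-leukocyte markers had the same low E2 replicate 3, with 8.99, 9.05 and 8.35 in E2 and 8.45, 8.18 and 8.47 in vehicle arrays. Itga4, the partner of Itgb1 in a receptor for Vcam1 and fibronectin, measured 1.23 ± 0.31 higher (adjusted p = 0.0622), and Itga9, a receptor for tenascin-C, -0.64 ± 0.17 (adjusted p = 0.0758). Neither passed. Single markers of other cells were called in the same comparison, most of each list not passing. Csf1r was the 1 called higher of 15 macrophage and pan-leukocyte markers (median 0.473). Twist1 was the 1 called higher of 16 stromal markers (median 0.345), and Kdr of 9 endothelial ones (median 0.0127). The 1 called lower was Msln of 6 mesothelial markers (median -0.0861), Ppbp of 3 platelet (-0.151) and Actg2 of 8 smooth muscle markers (-0.171). Each of these lists also held markers that measured the opposite way to the marker called. Against Csf1r these were Laptm5 and Aif1, and against Twist1 they were Col1a1, Col1a2, Col3a1 and Nr2f2. Cdh5, Gpm6a, Gp9 and Des were among those of the other lists.

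In the stromal layer E2 changed 3 of the 36 genes, Itga6 and Lama5 upward and Lama1 downward. This was 8.33% of the genes, against 3.5% of all probe sets (1.52% higher and 1.98% lower). The median of the 36 was 0.0398, and that of all probe sets 0.0264. Itga6, the alpha chain of laminin receptors with Itgb1 or Itgb4, read 11.10, 11.02 and 10.94 in stromal E2 arrays and 8.90, 10.01 and 9.07 in stromal vehicle arrays. The E2 arrays were level with each other and all above the vehicle arrays, of which replicate 2 was the highest. The difference was 1.69 ± 0.39 (3.23-fold, adjusted p = 0.0355).

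Lama5, the alpha chain of the most widespread adult laminins, read 10.70, 10.81 and 10.79 with E2 and 9.88, 10.20 and 10.22 with vehicle in stroma. It rose 1.59-fold (0.67 ± 0.13, adjusted p = 0.0152), to about the level of the epithelial arrays, which read 10.77, 10.81 and 10.88 with E2 and 10.87, 11.29 and 10.83 with vehicle. Lama1, the alpha chain of the laminin of the early embryo, read 7.64, 7.59 and 7.94 in stromal E2 arrays and 9.27, 8.47 and 9.39 in stromal vehicle arrays. Its groups were well apart, and it fell by 1.32 ± 0.24 (2.49-fold, adjusted p = 0.00974). In epithelium Lama1 read 7.10, 7.24 and 7.40 with E2 and 7.69, 7.78 and 8.34 with vehicle, and the fitted difference, -0.69 ± 0.24, was past no threshold (adjusted p = 0.157).

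Without stromal E2 replicate 2 or stromal vehicle replicate 1, 0 of the 36 genes passed by limma (10 at an unadjusted p under 0.05 in each fit). The adjusted p was then 0.121 and 0.155 for Itga6, 0.052 in both fits for Lama1, and 0.0748 and 0.076 for Lama5. Without stromal E2 replicate 3 Lama1 alone passed, with 0.0975 for Itga6 and 0.0599 for Lama5. Itga6 passed in 4 of 12 fits that left out an array (epithelial E2 replicate 3, epithelial vehicle replicate 2 or 3, or stromal vehicle replicate 2), and its highest adjusted p was 0.155. Without epithelial vehicle replicate 2, 7 genes passed, adding Itga3, Itga7, Itga9 and Itgav, and without epithelial vehicle replicate 3, 5, adding Itga3 and Itga7. With E2 replicates 1 and 2 averaged 0 of 36 passed (8 at an unadjusted p under 0.05), whereas the 6 stromal arrays alone gave 9, adding Itga3, Itga7, Itga9, Itgav, Itgb2 and Lama4. Of all probe sets 1.29% passed with the averaging and 9.15% in the stromal arrays alone, against 3.5% with all 12 arrays. The share was 1.76% without stromal E2 replicate 2, 1.9% without stromal vehicle replicate 1 and 2.17% without stromal E2 replicate 3. It was 5.73% and 4.13% without epithelial vehicle replicate 2 and 3.

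Some markers of other cells also differed with E2 in the stromal layer, while most of each list did not pass. The mean of 16 epithelial markers was 7.22, 7.25 and 7.09 in stromal E2 and 6.97, 6.87 and 6.77 in stromal vehicle arrays, with 1 marker called higher, Krt7 (1.32 ± 0.28, adjusted p = 0.024). Their median difference was 0.151, and Krt8 and Cdh1 measured lower. The mean of 8 smooth muscle markers was 11.72, 11.75 and 11.68 with E2 and 11.41, 11.44 and 11.53 with vehicle, and Cnn1 and Lmod1 were called higher. For 3 platelet markers it was 8.50, 8.39 and 7.97 with E2 and 9.31, 9.39 and 9.31 with vehicle, Ppbp being called lower and Gp9 measuring higher. Of 9 endothelial markers 1 was called, Cdh5, which was lower (-1.50 ± 0.26, adjusted p = 0.00771), with a list median of 0.108. The treatments did not overlap in the epithelial, smooth muscle and platelet means, nor in the macrophage and pan-leukocyte mean given below. The part of these cells in the differences of Itga6, Lama5 and Lama1 was not tested.

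Of the remaining genes Itga3 measured 0.66 ± 0.18 (adjusted p = 0.0775) and Itga7, a laminin receptor best known from muscle, 0.68 ± 0.20 (adjusted p = 0.103). Lama4, an alpha chain of vessels and mesenchyme, measured -0.75 ± 0.26 (adjusted p = 0.182). Itga1 and Itga9 measured -0.72 ± 0.26 and -0.60 ± 0.17, and Itga8 0.76 ± 0.28. None of these 6 passed in the 12-array fit. The mean of 15 macrophage and pan-leukocyte markers was 9.13, 9.10 and 8.96 in stromal E2 and 9.34, 9.21 and 9.33 in stromal vehicle arrays. Itgam read 8.73, 8.83 and 8.46 in stromal E2 and 9.06, 8.98 and 9.17 in stromal vehicle arrays, and Itgb2 read 8.54, 8.59 and 8.50 with E2 and 9.03, 8.80 and 9.16 with vehicle. Neither passed, at -0.40 ± 0.25 and -0.45 ± 0.25 (adjusted p = 0.663 and 0.562).

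A test of the difference between the E2 effects in the epithelial and the stromal layer passed for 1 gene, Itga3 (2.78% of the 36, against 0.91% of all probe sets, 0.641% higher and 0.269% lower). Itga3 read 9.87, 9.97 and 9.81 in stromal E2 and 9.14, 9.28 and 9.27 in stromal vehicle arrays, so that E2 arrays were the higher in stroma and the lower in epithelium, with no overlap in either layer. By itself the stromal difference did not pass by limma (adjusted p = 0.0775). The E2 effect in epithelium minus that in stroma was -1.69 ± 0.25 (95% interval -2.24 to -1.14, adjusted p = 0.012). This call was kept in all 12 fits that left out an array, with a highest adjusted p of 0.046. With E2 replicates 1 and 2 averaged it was -1.65 ± 0.31 (adjusted p = 0.132), which did not pass.

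For the other genes called in 1 layer the difference itself did not pass. It was -2.30 ± 0.55 for Itga6 (adjusted p = 0.0911), -0.85 ± 0.19 for Lama5 (adjusted p = 0.0623) and -1.78 ± 0.53 for Itgb4 (adjusted p = 0.187). Itga11 had 1.38 ± 0.40, Itga8 1.09 ± 0.40, Itgb8 1.14 ± 0.32 and Lama1 0.63 ± 0.33, with adjusted p-values of 0.174, 0.306, 0.146 and 0.594. Their 95% intervals were wide, as for Itga6 with -3.50 to -1.09. Without epithelial vehicle replicate 3 the test called 9 genes, adding Itga11, Itga6, Itgb4, Itgb6, Itgb8, Lama3, Lama5 and Lamb3, and without epithelial E2 replicate 3 it called 4, adding Itgam, Itgb2 and Lama5. Without epithelial vehicle replicate 2 it called Itga3 and Lama5. Calls over all probe sets rose in these fits as well. The share passing was 3.1% without epithelial vehicle replicate 3 and 3.04% without epithelial E2 replicate 3. It was 1.23% without epithelial vehicle replicate 2, against 0.91% with no array left out.

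Promoters of the 8 genes called in an E2 comparison were looked up in RefSeq (mouse, GRCm38.p6), which gave an entry for 5, covering 250 bases before to 50 after the start of transcription. They are shown because these genes changed with E2, which acts through a receptor that binds DNA. Capitals mark matches on either strand to GGTCA, the core of an estrogen response element, to CACCTG, an E-box, or to GGGCGG, a GC box. Of Itga3, with 2 starts in the table, the most upstream is given. The intervals are chr9:62677605-62677904 (plus strand) for Itga11, chr11:95076665-95076964 (minus) for Itga3, chr2:12301895-12302194 (minus) for Itga8, chr12:119238227-119238526 (minus) for Itgb8 and chr2:180225810-180226109 (minus) for Lama5.
Itga8: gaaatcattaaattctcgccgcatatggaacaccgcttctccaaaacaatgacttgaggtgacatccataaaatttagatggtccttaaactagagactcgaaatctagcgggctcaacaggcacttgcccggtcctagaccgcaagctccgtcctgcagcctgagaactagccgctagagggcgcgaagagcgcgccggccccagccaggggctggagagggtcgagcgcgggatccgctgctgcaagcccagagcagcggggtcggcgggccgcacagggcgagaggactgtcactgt
Itga11: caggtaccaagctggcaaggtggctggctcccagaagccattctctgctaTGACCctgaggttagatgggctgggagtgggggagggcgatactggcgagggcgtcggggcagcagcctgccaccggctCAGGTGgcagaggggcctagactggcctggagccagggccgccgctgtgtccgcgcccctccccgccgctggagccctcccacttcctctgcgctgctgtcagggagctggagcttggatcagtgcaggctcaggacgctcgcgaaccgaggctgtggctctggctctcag
Itgb8: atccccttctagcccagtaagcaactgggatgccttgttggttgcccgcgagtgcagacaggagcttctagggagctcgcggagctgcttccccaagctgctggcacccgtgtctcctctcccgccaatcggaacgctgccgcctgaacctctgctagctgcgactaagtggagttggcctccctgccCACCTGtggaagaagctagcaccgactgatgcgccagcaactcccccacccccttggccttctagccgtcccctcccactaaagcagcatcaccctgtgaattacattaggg
Itga3: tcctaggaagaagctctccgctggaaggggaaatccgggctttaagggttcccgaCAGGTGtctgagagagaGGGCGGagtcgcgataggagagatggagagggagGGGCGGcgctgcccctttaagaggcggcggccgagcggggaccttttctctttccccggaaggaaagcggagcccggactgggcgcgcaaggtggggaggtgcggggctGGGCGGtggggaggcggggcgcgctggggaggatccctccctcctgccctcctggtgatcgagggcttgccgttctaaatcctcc
Lama5: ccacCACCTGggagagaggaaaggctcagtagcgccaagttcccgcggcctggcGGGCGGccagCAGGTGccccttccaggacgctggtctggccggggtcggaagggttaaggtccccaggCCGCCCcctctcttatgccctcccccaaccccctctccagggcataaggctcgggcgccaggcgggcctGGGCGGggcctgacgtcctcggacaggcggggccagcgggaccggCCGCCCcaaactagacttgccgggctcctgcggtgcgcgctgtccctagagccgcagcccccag

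The full palindrome of the estrogen response element, GGTCANNNTGACC on either strand, was in 0 of these 5 windows and in 0.07% of the 32851 promoters of the table. GGTCA occurred once in this set, in Itga11 at position -200 from the start, and in 40.5% of all promoters. CACCTG was in Itga11, Itgb8, Itga3 and Lama5, with 2 matches in the last, and in 20.2% of all promoters. GGGCGG matched 3 times in Itga3 and 4 times in Lama5, against a match in 35.7% of all promoters. The window of Itga8 held none of them. Of 23 members with an entry, 0 held the palindrome, 6 the core, 8 the E-box and 11 the GC box. The core is one arm of the palindrome, and matches of different motifs did not overlap in the 5 windows printed. A match is a description of these windows and not a site of binding.

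Layer differences were more common than E2 differences. Under E2, 19 of the 36 genes differed between epithelial and stromal arrays, 8 higher and 11 lower in epithelium, which is 52.8% against 13.6% of all probe sets (4.43% higher and 9.18% lower). Under vehicle 21 differed, 8 higher and 13 lower, or 58.3% against 21.4% (7.27% higher and 14.1% lower). The medians were 0.00576 under E2 and -0.0852 under vehicle, against 0.021 and 0.0245 over all probe sets. In both comparisons 16 genes passed, all in the same direction, which is 84.2% of the E2 calls and 76.2% of the vehicle calls.

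**Figure D3:**
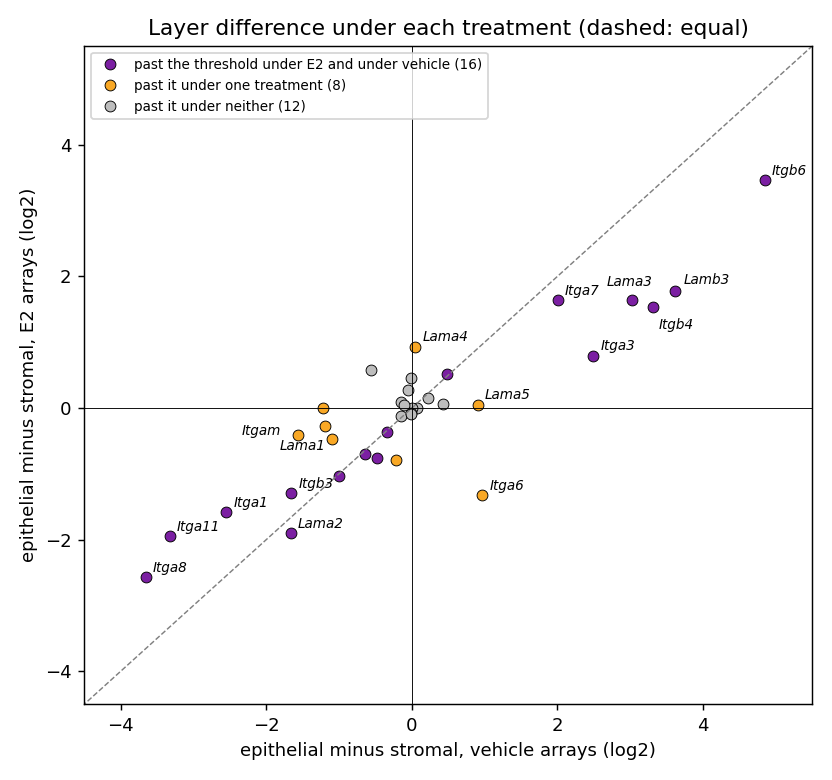
Epithelial minus stromal log2 difference of the 36 genes in vehicle arrays (horizontal axis) and in E2 arrays (vertical axis), with equal differences on the dashed line. Of the points, 16 passed under both treatments, 8 under 1 and 12 under neither. Itgb6, at 3.46 under E2 and 4.84 under vehicle, is farthest to the upper right, and Itga8, at -2.57 and -3.66, farthest to the lower left.

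Chains typical of epithelium, Itgb6, Itgb4, Itga3, Lama3 and Lamb3, were higher in the epithelial layer under both treatments. Itgb6, with the epithelial values given above, read 5.77, 5.65 and 5.75 in stromal E2 and 5.60, 5.48 and 5.63 in stromal vehicle arrays. It was 11-fold higher in epithelium under E2 (3.46 ± 0.46) and 28.7-fold under vehicle (4.84 ± 0.46, adjusted p = 4.45e-05). The stromal arrays lay between 5.48 and 5.77, below the lower quartile of their arrays, so these folds are ratios of signals and no measure of the ratio of transcripts. Itgb4 read 7.65, 7.77 and 7.72 in stromal E2 and 7.63, 7.48 and 7.84 in stromal vehicle arrays, and its layer difference was 1.53 ± 0.38 under E2 and 3.32 ± 0.38 under vehicle. Itga3 was 0.80 ± 0.18 higher in epithelium under E2 and 2.49 ± 0.18 under vehicle, all epithelial arrays lying above all stromal ones. Itga6, the partner of Itgb4, was instead lower in epithelium under E2 (-1.33 ± 0.39, adjusted p = 0.0435), while its difference under vehicle was 0.97 ± 0.39 (adjusted p = 0.104).

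Lama3 and Lamb3 were likewise higher in epithelium. In the stroma Lama3 read 6.82, 6.87 and 7.07 with E2 and 6.68, 6.70 and 6.84 with vehicle, giving a layer difference of 1.64 ± 0.39 under E2 and 3.02 ± 0.39 under vehicle. Lamb3 read 7.45, 7.56 and 7.33 with E2 and 7.53, 6.79 and 7.33 with vehicle in stroma and differed by 1.78 ± 0.43 under E2 and 3.61 ± 0.43 under vehicle. The layer difference was thus smaller under E2 than under vehicle for Itgb6, Itgb4, Itga3, Lama3 and Lamb3, and the change in it passed the test for Itga3 alone. The 16 epithelial markers had a median layer difference of 2.31 under E2 and 4.14 under vehicle, with a median change of -1.13. For that change 1 of the 16 passed by limma (9 at an unadjusted p under 0.05). The part of the marker shift in these chains was not tested. Itga7 read 10.50, 10.60 and 10.70 in epithelial E2, 8.997, 9.09 and 8.78 in stromal E2, 10.07, 9.94 and 10.83 in epithelial vehicle and 8.10, 8.44 and 8.28 in stromal vehicle arrays. It was 1.64 ± 0.20 higher in epithelium under E2 and 2.00 ± 0.20 under vehicle (3.12-fold and 4.01-fold). The epithelial array with the fewest epithelial markers among the vehicle arrays, replicate 3, had the highest Itga7 of all 12, the reverse of the order in Lama3 and Lamb3.

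**Figure D4:**
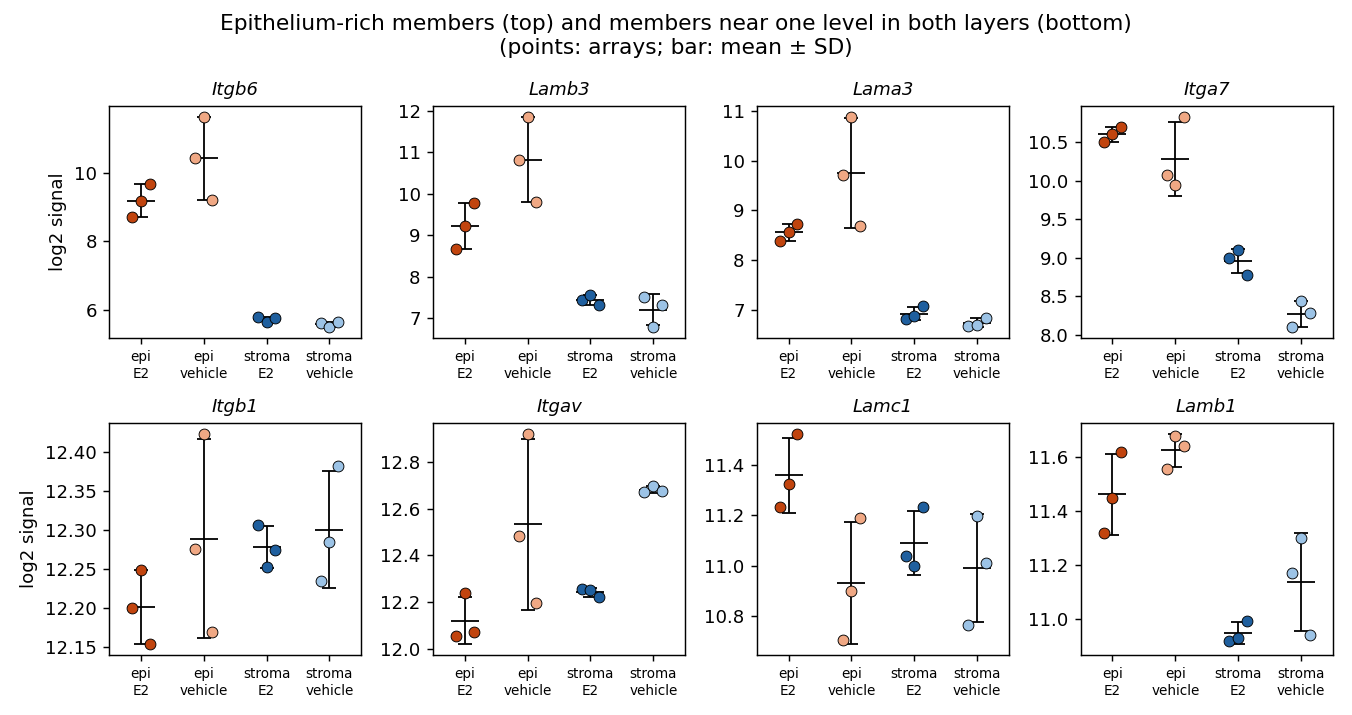
Log2 signal (vertical axes) of 8 genes for epithelial E2, epithelial vehicle, stromal E2 and stromal vehicle arrays from left to right, with points for the 3 arrays of a group and bars for the mean ± SD. Itgb6, Lamb3, Lama3 and Itga7 are higher in the epithelial groups, Lamb1 is higher there by about 0.5, and Itgb1, Itgav and Lamc1 passed in 0 of the 5 comparisons.

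Of 4 collagen-binding alpha chains 3 were lower in epithelium under E2 and 2 under vehicle, and 0 were higher. Of 8 chains of receptors for RGD proteins 4 were lower and 1, Itgb6, higher under each treatment, where 9.18% of all probe sets were lower under E2 and 14.1% under vehicle. Itga11 read 12.90, 12.89 and 12.99 in stromal E2 arrays and 12.57, 12.82 and 12.69 in stromal vehicle arrays, and its epithelial minus stromal difference was -1.95 ± 0.28 under E2 and -3.33 ± 0.28 under vehicle. Itga8 read 11.84, 11.85 and 12.16 with E2 and 10.60, 11.49 and 11.50 with vehicle in stroma, and differed by -2.57 ± 0.28 under E2 and -3.66 ± 0.28 under vehicle (5.93-fold and 12.6-fold). Both genes, higher with E2 in the epithelial layer, were thus genes of lower signal there than in stroma. Itga1, a collagen receptor of mesenchymal cells, read 9.49, 9.61 and 9.30 in epithelial E2, 10.95, 10.98 and 11.22 in stromal E2, 8.65, 9.24 and 9.77 in epithelial vehicle and 11.37, 12.18 and 11.76 in stromal vehicle arrays. It was lower in epithelium by 1.58 ± 0.26 under E2 and 2.55 ± 0.26 under vehicle.

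Itga2, the collagen receptor of epithelia and platelets, was called under 1 treatment. Its layer difference passed under E2 (-0.79 ± 0.20, adjusted p = 0.02) but not under vehicle (-0.22 ± 0.20, adjusted p = 0.459), and the change between treatments did not pass (-0.57 ± 0.28, adjusted p = 0.527). Itga10, a collagen receptor of cartilage, read 7.04 to 7.58 on all 12 arrays and passed nowhere. The vitronectin receptor chain Itgb3 read 11.02, 11.11 and 10.95 in epithelial E2, 12.30, 12.35 and 12.32 in stromal E2, 11.01, 9.99 and 11.30 in epithelial vehicle and 12.37, 12.42 and 12.50 in stromal vehicle arrays. It was lower in epithelium by 1.30 ± 0.25 under E2 and 1.66 ± 0.25 under vehicle, and the layers did not overlap. The E2 difference of Itgb3 was 0.26 ± 0.25 in epithelium (adjusted p = 0.72) and -0.10 ± 0.25 in stroma (adjusted p = 0.953).

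Itgb5, another partner of Itgav, read 11.92, 11.89 and 12.06 in epithelial E2, 12.64, 12.65 and 12.68 in stromal E2, 11.88, 11.88 and 12.16 in epithelial vehicle and 12.56, 12.69 and 12.59 in stromal vehicle arrays (-0.70 ± 0.094 and -0.64 ± 0.094 between layers under E2 and vehicle). Itga5, the fibronectin receptor, read 12.61, 12.64 and 12.52 in epithelial E2, 13.004, 12.99 and 12.88 in stromal E2, 12.79, 12.64 and 12.68 in epithelial vehicle and 13.01, 13.04 and 13.08 in stromal vehicle arrays, a small difference of -0.37 ± 0.078 under E2 and -0.34 ± 0.078 under vehicle. The arrays of each group lay close together. Itga9 read 8.24, 8.32 and 8.13 in epithelial E2, 9.22, 9.22 and 9.36 in stromal E2, 8.68, 9.36 and 8.56 in epithelial vehicle and 9.76, 9.87 and 9.97 in stromal vehicle arrays, and was lower in epithelium by 1.04 ± 0.17 under E2 and 1.00 ± 0.17 under vehicle. Itga4 passed under vehicle alone (-1.19 ± 0.31, adjusted p = 0.0193, and -0.28 ± 0.31 under E2).

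Itgb8 passed in neither layer comparison, with 0.58 ± 0.22 under E2 (adjusted p = 0.118) and -0.56 ± 0.22 under vehicle (adjusted p = 0.101). Itgav, the alpha chain shared by Itgb3, Itgb5, Itgb6 and Itgb8, read 12.05, 12.24 and 12.07 in epithelial E2, 12.48, 12.92 and 12.20 in epithelial vehicle, 12.26, 12.25 and 12.22 in stromal E2 and 12.67, 12.70 and 12.68 in stromal vehicle arrays. Its E2 difference was -0.41 ± 0.15 in epithelium and -0.44 ± 0.15 in stroma, alike in size, and neither passed (adjusted p = 0.174 and 0.169). Itgb1, the beta chain shared by most alpha chains here, read between 12.15 and 12.42 on all 12 arrays and passed nowhere. Its difference was -0.088 ± 0.084 with E2 in epithelium (95% interval -0.27 to 0.097) and -0.022 ± 0.084 in stroma (95% interval -0.21 to 0.16). From the lowest to the highest array Itgb1 spanned 0.27 log2 units, whereas Itga8, one of its partners, spanned 4.91.

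Of 10 laminin chains 4 were higher and 2 lower in epithelium under E2, and 4 higher and 3 lower under vehicle. That is 40% and 20% under E2, against 4.43% and 9.18% of all probe sets. Under vehicle it is 40% and 30%, against 7.27% and 14.1%. Lama2, the alpha chain of muscle and mesenchymal basement membranes, read 6.72, 6.89 and 6.65 in epithelial E2, 8.39, 8.42 and 9.17 in stromal E2, 6.87, 7.45 and 6.86 in epithelial vehicle and 8.39, 8.92 and 8.85 in stromal vehicle arrays. It was lower in epithelium by 1.91 ± 0.23 under E2 and 1.66 ± 0.23 under vehicle. Lamb2 read 9.76, 9.85 and 9.93 in epithelial E2, 10.54, 10.59 and 10.67 in stromal E2, 9.88, 10.16 and 10.03 in epithelial vehicle and 10.23, 10.60 and 10.68 in stromal vehicle arrays, lower in epithelium by 0.75 ± 0.12 and 0.48 ± 0.12. The other broad beta chain, Lamb1, went the other way, with 11.32, 11.45 and 11.62 in epithelial E2, 10.92, 10.93 and 10.99 in stromal E2, 11.56, 11.68 and 11.64 in epithelial vehicle and 11.17, 11.30 and 10.94 in stromal vehicle arrays, and was higher in epithelium by 0.51 ± 0.11 under E2 and 0.49 ± 0.11 under vehicle.

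Lama5 and Lama1 passed between layers under vehicle and not under E2, and the change between treatments itself did not pass for either. Lama5 was 0.90 ± 0.13 higher in epithelium under vehicle and differed by 0.053 ± 0.13 under E2 (adjusted p = 0.829), and Lama1 was 1.10 ± 0.24 lower under vehicle and differed by -0.48 ± 0.24 under E2 (adjusted p = 0.22), where the layers did not overlap. Lama4 passed under E2 (0.93 ± 0.26, adjusted p = 0.0334) and not under vehicle (0.048 ± 0.26, adjusted p = 0.911). The gamma chain Lamc1, part of most laminins, read 11.23, 11.32 and 11.52 in epithelial E2, 10.70, 10.90 and 11.19 in epithelial vehicle, 11.04, 10.998 and 11.23 in stromal E2 and 10.77, 11.20 and 11.01 in stromal vehicle arrays and passed nowhere, with 0.43 ± 0.15 for E2 in epithelium (adjusted p = 0.156). Lamc3, the rarer gamma chain, read between 7.65 and 8.34 and passed nowhere.

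Of the leukocyte and platelet integrins Itgam and Itgb2 differed between layers under vehicle, and 6 others did not pass. The 2 called were 28.6% of the 7 leukocyte integrins, both lower, against 21.4% of all probe sets (14.1% lower). Under E2 0 of the 7 passed by limma (1 at an unadjusted p under 0.05), against 13.6% of all probe sets. These chains are too few for the share to be read as a trait of them. Itgam and Itgb2 were lower in epithelium under vehicle, by 1.57 ± 0.25 and 1.23 ± 0.25 (adjusted p = 0.00129 and 0.00513), and the 15 macrophage and pan-leukocyte markers had 1 higher, 10 lower and a median of -1.13 in that comparison. Under E2 the differences were -0.40 ± 0.25 and 0.0057 ± 0.25 and did not pass, beside 1 marker higher, 5 lower and a median of -0.304. The part of these cells in the values was not tested. Itgal, Itgax, Itgae, Itgb7, Itgad and the platelet chain Itga2b passed in 0 of the 5 comparisons. Their signals were 6.60 to 7.07 for Itgal, 6.08 to 6.84 for Itgax, 5.97 to 6.70 for Itgae and 7.005 to 7.25 for Itgb7 over the 12 arrays, 6.90 to 7.42 for Itgad and 7.32 to 7.71 for Itga2b. Means of 5 neutrophil and 7 lymphocyte markers lay at 5.61 to 6.13 and at 5.23 to 5.60.

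Of the 21 layer calls under vehicle, 19 held in every fit that left out an array. Itga4 was lost without stromal vehicle replicate 2 (adjusted p = 0.085), and Lamb2 without epithelial vehicle replicate 1, stromal vehicle replicate 2 or stromal vehicle replicate 3 (0.0635, 0.066 and 0.0697). The labels do not say whether the vehicle arrays of the layers are paired by number. With the replicate number as a block in a fit of these 6 arrays 17 of the 21 remained, the adjusted p being 0.129 for Itga4, 0.0818 for Itga5, 0.0559 for Lamb1 and 0.0512 for Lamb2. Of all probe sets 12% passed in that fit, against 21.4% in the fit of 12 arrays. Under E2, 13 of 19 held in every fit that left out an array. Itga6 was lost without 9 of the 12 arrays (all but epithelial vehicle replicates 2 and 3 and stromal vehicle replicate 2, adjusted p at most 0.121), and Itga2, Lama3, Lama4, Lamb3 and Itgb4 without epithelial E2 replicate 3 or stromal E2 replicate 1 (adjusted p of 0.0547 to 0.133). Without stromal E2 replicate 2 all of these but Lamb3 were lost (0.0575 to 0.122), without stromal E2 replicate 3 Itga2, Itgb4 and Lamb3 (0.0521 to 0.0624), and without stromal vehicle replicate 3 Lama4 (0.051). With E2 replicates 1 and 2 averaged 9 of the 19 remained, Itgb6, Itga7 and Itga8 among them and Itga3, Lama3, Lamb3 and Itgb4 not. Of all probe sets 6.07% passed with the averaging, against 13.6% without it.

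**Figure D5:**
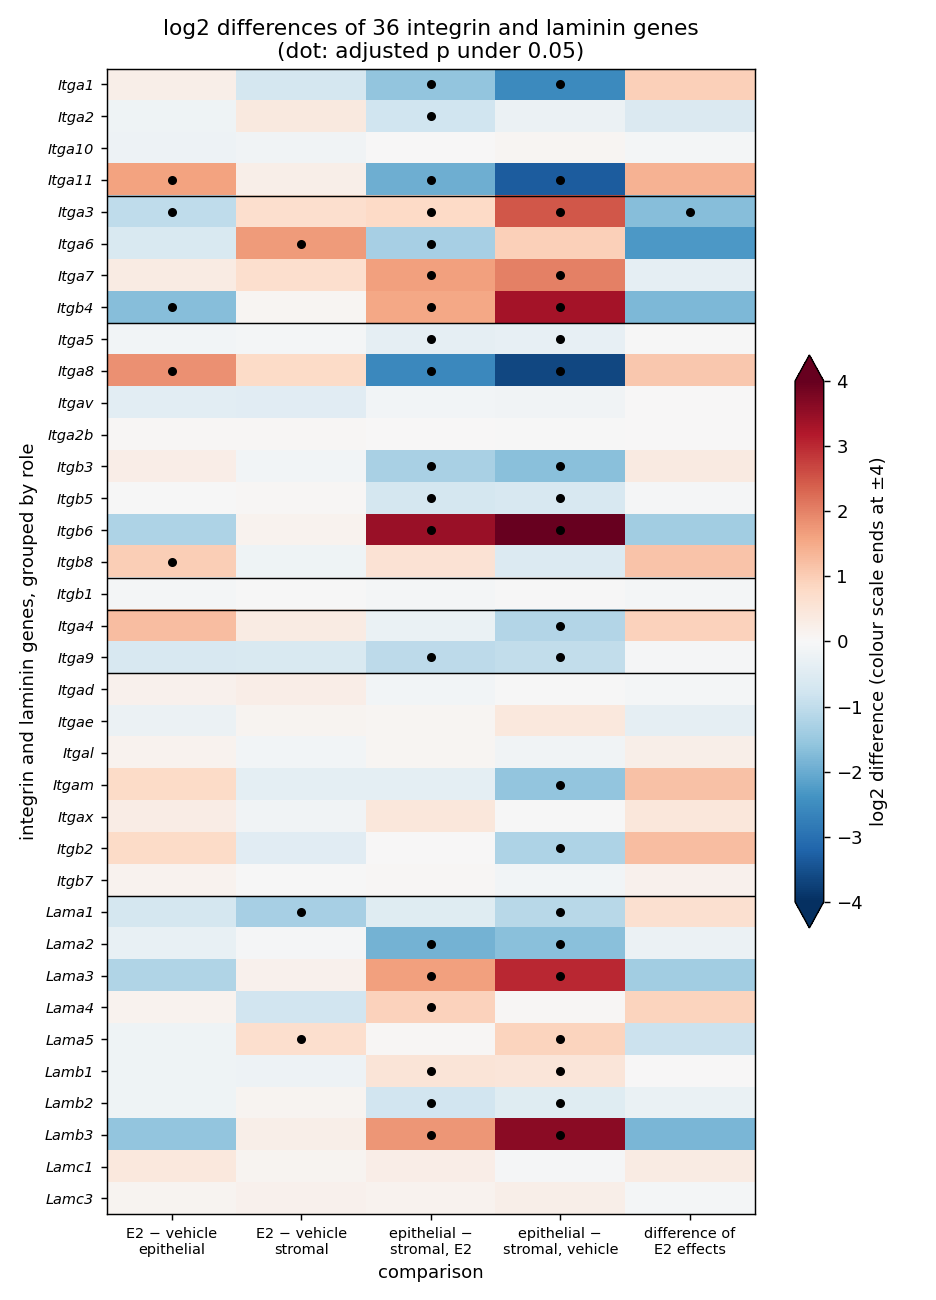
Log2 differences of the 36 genes (rows, grouped by role) in 5 comparisons (columns), red for higher and blue for lower in the group named first, with a dot where the adjusted p is under 0.05. Dots number 5 and 3 in the E2 columns of the epithelial and stromal layer, 19 and 21 in the layer columns under E2 and vehicle, and 1 in the last column.

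Of 81 other genes of the adhesion system E2 changed 5 in epithelium, or 6.17% against 2.9% of all probe sets, and 7 in stroma, or 8.64% against 3.5%. Of 22 basement membrane partners 0 rose and 2 fell in epithelium, Agrn (agrin, -1.18 ± 0.18) and Col18a1 (-0.81 ± 0.15), with a median of -0.0285. In stroma Ntn4, a netrin that binds laminin, rose (1.72 ± 0.29) and Col15a1 and Col18a1 fell (-1.09 ± 0.20 and -0.74 ± 0.15), with a median of -0.0868. Of 26 measured integrin ligands 1 fell in epithelium, the elastic fibre protein Fbln5 (-0.65 ± 0.12), and the same gene rose in stroma (0.68 ± 0.12), where Edil3, an RGD protein, fell (-1.36 ± 0.15). The difference between layers passed for both, at -1.33 ± 0.18 for Fbln5 and 1.23 ± 0.22 for Edil3. Among 29 measured focal adhesion adaptors Flna and Ptk2b fell in epithelium (-0.33 ± 0.068 and -0.64 ± 0.15) and Tns3 in stroma (-0.55 ± 0.11). Of the 4 hemidesmosome partners 0 passed in epithelium by limma (1 at an unadjusted p under 0.05), and Plec fell in stroma (-0.62 ± 0.13).

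Between layers 4 of the 29 adaptors were higher and 12 lower in epithelium under E2, with 13 not passing, and the numbers under vehicle were the same. The lower ones were 41.4% of the list, against 9.18% of all probe sets under E2 and 14.1% under vehicle. Fermt1, the kindlin of epithelia that activates integrins, was 3.58 ± 0.50 higher under E2 and 4.96 ± 0.50 under vehicle, and Lims2, an adaptor of the integrin-linked kinase, was -1.57 ± 0.15 and -1.48 ± 0.15. Of the ligands 5 were higher and 3 lower under E2 (19.2% and 11.5%), and 5 higher and 4 lower under vehicle (19.2% and 15.4%). They included Cdh1, the cadherin bound by Itgae with Itgb7 and a marker of epithelium (3.88 ± 0.31 and 4.66 ± 0.31), and Vcam1, the ligand of Itga4 (2.98 ± 0.37 and 3.05 ± 0.37). Among basement membrane partners 2 were higher and 4 lower under E2 (9.09% and 18.2%), and 5 and 4 under vehicle (22.7% and 18.2%). Of all probe sets 4.43% were higher under E2 and 7.27% under vehicle. Npnt, the ligand of Itga8, was higher in epithelium under E2 (2.49 ± 0.40) and vehicle (2.42 ± 0.40), whereas its receptor chain was lower there. Col4a3 was lower in epithelium under E2 (-1.50 ± 0.14) and vehicle (-1.32 ± 0.14). Of the 4 hemidesmosome partners 0 passed under E2 by limma (0 at an unadjusted p under 0.05), with a median of 0.0137. Under vehicle 1 was higher (25%) and 0 were lower, with a median of 0.169.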

How the data were processed

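Values are the log2 signals of 35556 probe sets on 12 arrays as deposited by the authors, who made them with RMA on a mouse gene-level array, per the submitters' processing notes. RMA corrects background, normalizes by quantiles and summarises probes, so differences of dim genes are compressed. Its version is not given in the sources used here, and every value column belonged to a sample (0 columns were left out). A symbol was given for 23410 probe sets (21789 with 1 symbol, 1621 with several), and 12146 without one were not tested. The 3 probe sets naming a member beside another gene were left out. All 36 member symbols were current in the RefSeq gene table.

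Differences were fitted with limma 3.58.1 in R 4.3.3 (lmFit and eBayes, two-sided) on all 12 arrays in 4 groups without a block, with Benjamini-Hochberg adjustment over 23410 probe sets and a threshold of 0.05. The fit had 8 residual and 3.27 prior degrees of freedom, and 3 arrays a group limit its precision. The script was tested on simulated data. Whether same-numbered arrays share a co-culture is not given in the labels. Same-numbered vehicle arrays of the layers deviated together weakly (r of 0.17, 0.14 and 0.13 between deviations from the group means). Each was closest to its own number, but 3 arrays a group cannot settle pairing. The number was therefore used as a block only in alternative fits.

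Every member is named. Full values were kept for members past the threshold, at most 12 a comparison by p, and for Itga6, Itgb4, Itgav, Itgb3, Itgb1, Lama3, Lamb3, Lama5, Lamb1 and Lamc1. Up to 4 passing genes of each pathway list are named per comparison by p. The members and the marker and pathway lists were chosen with earlier results of these data known. Promoters came from RefSeq (GRCm38.p6). Alternatives covered a mean filter of 6, the probe sets tested, scaling, the eBayes prior, array weights, multiple probe sets, blocks, the arrays fitted and each array left out.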

Additional observations from a re-analysis of the deposited data

Results flagged for a closer look

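The E2 effect on Itga3 differed between the layers, and this difference was itself tested. The effect in epithelium minus that in stroma was -1.6895 on the log2 scale by limma (adjusted p = 0.012, n = 3 arrays in each group). Itga3 was lower in 3 of 3 epithelial E2 arrays than in every epithelial vehicle array and higher in 3 of 3 stromal E2 arrays than in every stromal vehicle array. Itga3 was picked as called, so nothing is read from the lack of overlap. By itself the stromal difference of 0.66 did not pass by limma (adjusted p = 0.0775). With E2 replicates 1 and 2 averaged the difference between the layers did not pass either (adjusted p = 0.132). The epithelial marker mean also differed between the epithelial treatments (9.60, 9.78 and 9.79 in E2 arrays, 10.76, 11.29 and 9.72 in vehicle arrays), and its part in the Itga3 difference was not tested.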

How the results depend on the processing

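Shares of all probe sets are given in brackets. Counts of members passing were 5 and 3 for E2 in epithelium and stroma (2.9% and 3.5%), 21 and 19 for the layers under vehicle and E2 (21.4% and 13.6%), and 1 for the layer difference in the E2 effect (0.91%). They were unchanged after centring arrays on the median, with a variance trend and robust prior, and when a gene took the average of its probe sets. A mean filter of 6 raised the 19 to 20 and left the other counts. The shares rose with that filter, which left 17862 probe sets. They were 4.25% and 4.72% for E2 in epithelium and stroma, 28.1% and 18% for the layers under vehicle and E2, and 1.28% for the layer difference. Testing all probe sets gave 3 and 2 for E2 in epithelium and stroma (1.49% and 1.86%) and 17 for the layers under E2 (9.43%), with more tests to adjust for. Quantile normalization gave 7 for E2 in epithelium (4.69%), 20 for the layers under vehicle (20.4%) and 2 for the layer difference (1.15%). The other counts stayed in both. Array weights, which ranged from 0.12 to 6.69, gave 15 and 14 for E2 in epithelium and stroma (20.1% and 19.2%) and 17 for the layer difference (19.2%), and the cause was not tested. Fits of only the arrays compared gave 0 and 9 for E2 in epithelium and stroma by limma (13 and 17 at an unadjusted p under 0.05). Of all probe sets 0.209% and 9.15% passed in them. Leaving out each array in turn gave 1 to 12 and 0 to 7 for E2 in epithelium and stroma, 20 to 24 and 13 to 21 for the layers under vehicle and E2, and 1 to 9 for the layer difference. The shares of all probe sets ranged as well, from 0.935% to 6.98% and 1.76% to 5.73% for E2 in epithelium and stroma. They were 14.5% to 30.7% and 8.34% to 19.8% for the layers and 0.346% to 3.1% for the layer difference. Averaging E2 replicates 1 and 2, chosen after seeing the data, gave 0 and 0 for E2, 9 for the layers under E2 and 0 for the layer difference by limma (12, 8, 20 and 9 at an unadjusted p under 0.05), with fewer samples. Of all probe sets 0.38%, 1.29%, 6.07% and 0.0513% passed, in that order. Of 49 calls, 34 held without any 1 array, 26 under every alternative, and 0 reversed.

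With the replicate number as a block the 12 arrays gave 3 for the layer difference, 4 for E2 in either layer, and 21 and 19 for the layers. Of all probe sets 0.97% passed for the layer difference, 2.86% and 3.72% for E2 in epithelium and stroma, and 22.3% and 14.2% for the layers. The block on only the arrays compared, added after seeing the data, gave 0 and 11 for E2 in epithelium and stroma (12 and 17 at an unadjusted p under 0.05), and 17 and 20 for the layers under vehicle and E2. Of all probe sets 0.0982%, 8.13%, 12% and 12.3% passed, in that order. Whether a number marks a shared co-culture is not given in the labels, and 3 arrays a group cannot settle it. Outside the vehicle layers, deviations of same-numbered arrays correlated at -0.42, 0.27 and 0.27 for E2 with vehicle in epithelium, at 0.20, -0.04 and 0.03 in stroma and at -0.31, 0.23 and -0.06 for the E2 layers. Of these, replicate 2 in epithelium, replicate 1 in stroma and replicate 2 of the E2 layers were closest to their own number.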
